A study of Mus musculus with 12 samples.

Results

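The arrays of CD172a dendritic cells (CD172a DC) were set against those of pre-CD4 cells, the marrow progenitor named for the same lineage, across 22184 genes. The arrays were chosen by their titles: 2 of CD172a DC and 2 of pre-CD4, 4 of the 12 arrays in the series. The other arrays held 3 of CD24 DC, 2 of pre-CD8 and 3 of common DC progenitors (CDP). All 5 groups came from N8 Zbtb46GFP/+ mice of strain C57Bl/6 at steady state, 8 to 10 littermates in all, so the GFP allele at Zbtb46 was shared by every sample and no wild-type sample is used here. Pre-CD4 cells were bone marrow cells without lineage markers, positive for CD135, CD115 and CD11c, low for CD117 and negative for MHC class II. The gate of CD172a DC asked only for CD11c, MHC class II and CD172a on the surface. For the comparison lineage, pre-CD8 cells were marrow cells without lineage markers or Siglec H, positive for CD135 and CD11c and intermediate for CD117 and MHC class II, and CD24 DC were labelled CD11c+, CD24+, CD172a- and negative for MHC class II, although H2-Ab1, a class II transcript, averaged 12.19 on their arrays. CDP were lineage-negative marrow cells, intermediate for CD117, positive for CD135 and CD115 and negative for CD11c and MHC class II. The stated sort purity was above 95%.

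Marrow was crushed in a mortar, and splenocytes, the source of the mature DC, were freed by Collagenase B and DNAse1. Stage of maturation, organ and digestion therefore changed together between the 2 groups, and they cannot be told apart. Nothing in the labels tells if the arrays of 1 group stem from different animals or from a shared pool, so every p-value here measures only the spread between these arrays, which may be technical.

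Classical DC arise from marrow progenitors that enter the blood and finish their differentiation in tissues. The cDC2 lineage, marked by CD172a (SIRPα, the product of Sirpa), relies on IRF4 and in spleen on NOTCH2 signalling, whereas the cDC1 lineage relies on IRF8, BATF3 and ID2. A mature DC takes up antigen, loads it on MHC class II, and displays it with costimulatory ligands such as CD80 and CD86 to T cells. Plasmacytoid DC (pDC), which specialise in type I interferon, depend on TCF4 and share several transcripts with DC progenitors.

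Values are the deposited log2 expression values. A difference is the CD172a DC mean minus the pre-CD4 mean, so that 1 unit is a 2-fold difference. A gene was called at a Benjamini-Hochberg adjusted p under 0.05 in limma, fitted to all 12 arrays. Of 22184 genes, 2821 were called (12.7%), 1042 higher in CD172a DC (4.70%) and 1779 lower (8.02%). Differences exceeded 4-fold for 235 of the genes called higher and 262 of those called lower, and exceeded 16-fold for 43 and 8. The median difference over all genes was 0.09. The arrays did not overlap between the groups for any of the 2821 called genes, nor for 60.5% of all genes. A lack of overlap stated below for a called gene therefore adds nothing to its call. The 2 CD172a DC arrays correlated across genes at r = 0.966, the pre-CD4 arrays at 0.971, and pairs between the groups at 0.884 to 0.937; genes are not independent replicates. The count of higher genes was 649, 661 and 503 without CD172a DC array 1, CD172a DC array 2 or pre-CD4 array 1, and the count of lower genes was 806, 730 and 1161 without CD172a DC array 1, pre-CD4 array 1 or pre-CD4 array 2. Quantile normalization moved the median to 0.01 and the share of calls that were higher from 36.9% to 46.2%.

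The genes of the gates were set by the sort and are no finding. The class II β chain gene H2-Ab1 was 11.79 and 12.06 on the CD172a DC arrays and at 8.17 and 10.20 on the pre-CD4 arrays, a spread of more than 2 units within the progenitor that was gated negative for the protein. H2-Aa showed the same spread there, at 7.67 and 9.45. Sirpa was 9.36 and 9.34 against 8.17 and 8.30, a difference of 1.12 ± 0.26 (SE). Its limma adjusted p of 0.0109 became 0.0694, 0.0516 and 0.0948 without CD172a DC array 1, CD172a DC array 2 or pre-CD4 array 1. Kit, the gene of CD117, was 9.59 and 9.80 in CD172a DC and 6.11 and 5.80 in the cells gated low for CD117, a difference of 3.74. Csf1r, which encodes CD115, differed by -0.68 (95% interval -1.29 to -0.06, adjusted p = 0.148), Flt3, which encodes CD135, by -0.30 (-0.84 to 0.23, adjusted p = 0.471), and Itgax, which encodes CD11c, by 0.26 (-0.40 to 0.92, adjusted p = 0.629). These 3 did not pass the limma test, and Itgax turned to -0.08 without CD172a DC array 2.

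**Figure D1:**
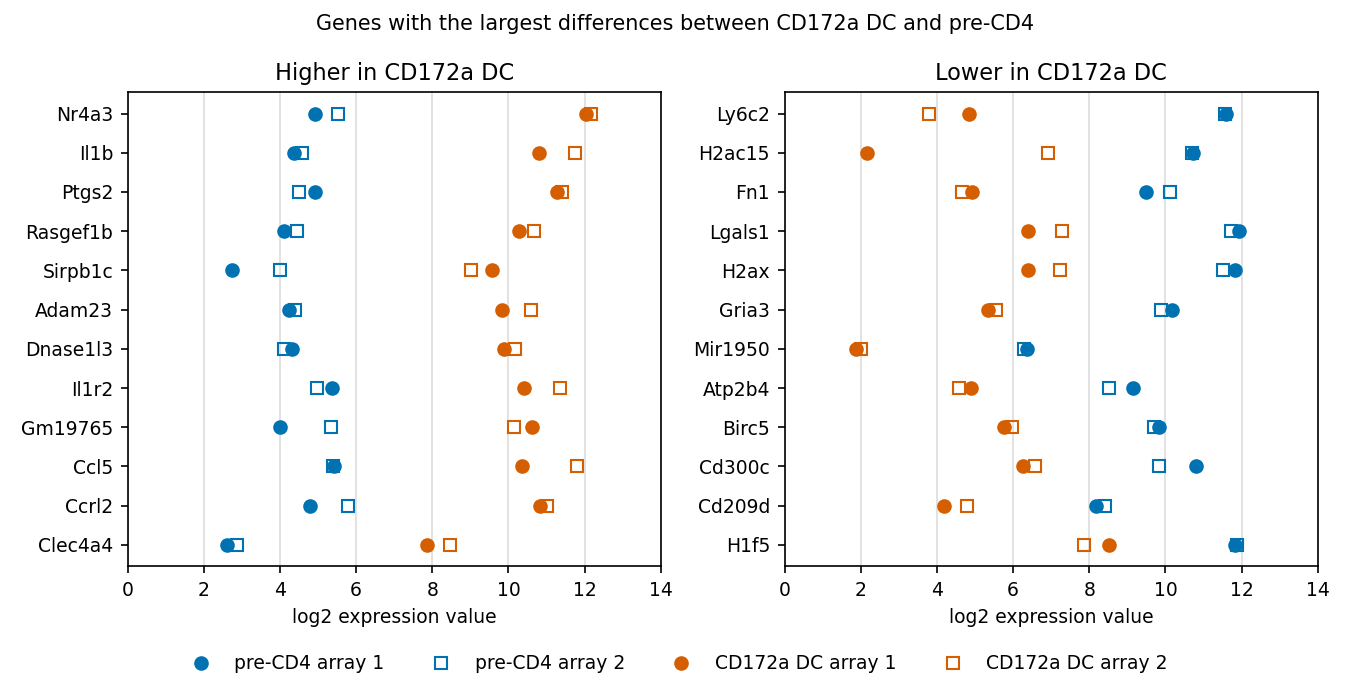
The 12 genes with the largest positive (left) and negative (right) differences, with the log2 expression value on the horizontal axis; blue marks are pre-CD4 arrays, orange marks CD172a DC arrays, filled circles array 1 and open squares array 2. No gene shown has overlapping groups, and H2ac15 is the widest within a group, at 2.16 and 6.91 in CD172a DC.

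The largest rise was that of Nr4a3, an orphan nuclear receptor induced within minutes of stimulation, which stood at 12.04 and 12.16 in CD172a DC and 4.93 and 5.53 in pre-CD4. That is 117-fold (log2 difference 6.87 ± 0.53 SE, limma adjusted p = 3.47e-06). Il1b, the gene of interleukin-1β, followed at 10.81 and 11.76 against 4.37 and 4.58, a difference of 6.80 ± 0.35 (adjusted p = 2.04e-07). Ptgs2, which encodes the prostaglandin synthase COX-2, was 11.28 and 11.41 against 4.91 and 4.49, higher by 6.64 ± 0.26 (adjusted p = 3.43e-08). For all 3 the arrays of the groups lay more than 4 units apart. The next genes included Rasgef1b, a guanine nucleotide exchange factor (6.19), Adam23, a cell-surface metalloprotease-like protein (5.88), Dnase1l3, a secreted DNase (5.82), and Il1r2, the decoy receptor for interleukin-1 (5.73). The gene annotated Gm19765 rose by 5.71 and has no established role to give. Ccl5, a chemokine for T cells and monocytes, rose by 5.67 and Ccrl2, an atypical receptor that binds chemerin, by 5.63.

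On the side of the progenitor, Ly6c2, a gene of the monocyte and pDC surface antigen Ly6C, was 11.58 and 11.56 in pre-CD4 and 4.84 and 3.79 in CD172a DC, 153-fold (difference -7.25 ± 0.43, limma adjusted p = 7.27e-07). Fn1, the gene of fibronectin, was 9.49 and 10.13 against 4.91 and 4.65, and Lgals1, which encodes galectin-1, was 11.93 and 11.71 against 6.40 and 7.29. Both pairs of arrays were far apart, with differences of -5.02 and -4.97. H2ax, the histone variant of DNA breaks, fell by 4.86, and the replication-linked histone genes H2ac15 and H1f5 fell by 6.17 and 3.67. H2ac15 differed by almost 5 units between the CD172a DC arrays, and its standard error was 1.08. Gria3, a glutamate receptor subunit, fell by 4.58, Atp2b4, a plasma membrane calcium pump, by 4.09, and the probe set annotated to the microRNA gene Mir1950 by 4.38. Members of near-identical families, among them Ly6c2, the Sirpb1 and Clec4a genes, Cd209d, the Klri genes, histone genes and MHC genes, can share probes and are uncertain to that extent. Each of the 24 genes in the plot of the largest differences kept its call without any single array of the pair.

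Genes of mitosis fell throughout. All 40 measured members of the list were called lower, against 8.02% of all genes, with a median difference of -2.60 and a range of -3.90 to -1.02. A difference of more than 4-fold was seen for 37 of them. Birc5, which encodes survivin of the chromosomal passenger complex, stood at 9.82 and 9.71 in pre-CD4 and 5.75 and 5.98 in CD172a DC, 15.0-fold lower in the mature cells (limma adjusted p = 1.5e-05). The spindle checkpoint kinase gene Ttk fell from 8.48 and 8.78 to 5.0 and 5.58, and Plk1, a master kinase of mitosis, from 9.20 and 9.31 to 5.59 and 6.31. Anln, a scaffold of the cytokinetic ring, fell by 3.27 ± 0.36. Mki67, the gene of the proliferation antigen Ki-67, was 10.80 and 11.24 against 9.04 and 9.03, a smaller difference of -1.98 ± 0.30 (adjusted p = 0.000731). The groups overlapped for none of these genes, nor for 60.5% of all genes. Leaving out any one of the 4 arrays left 38 or 39 members called, and quantile normalization left 40. In bulk RNA from sorted cells, fewer cells of a kind and less RNA per cell cannot be told apart.

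The promoters of these genes are shown because so many of them fell together. The RefSeq table used here (GRCm38.p6) held a window of 150 bases before to 30 after the start site for 33 of the 40. Promoters of mitotic genes are known for the cell cycle homology region (CHR, TTTGAA), often placed a short way downstream of CCAAT boxes (CCAAT). On either strand, 21 of the 33 windows held TTTGAA (63.6%), against 10.5% of 27025 promoters of the same length, and 24 held CCAAT (72.7% against 27.7%). Both were found in 19 (57.6% against 2.96%), and the E2F site GGCGGGAA in 0 (1.62% of all promoters). Below are the windows of 4 genes with both, picked after their values were seen. They had the largest falls with both motifs among the genes eligible for display. Genes on a chromosome left out of the display were not considered. Capitals mark TTTGAA and CCAAT, which read TTCAAA and ATTGG where they lie on the opposite strand, and each window runs 5′ to 3′ along the gene's own strand. Ttk lies at chr9:83834539-83834718 (+), Cenpf, the gene of a kinetochore protein, at chr1:189688057-189688236 (-), Racgap1, a regulator of cytokinesis, at chr15:99651627-99651806 (-), and Hmmr, a spindle-associated hyaluronan receptor, at chr11:40733408-40733587 (-).
Ttk: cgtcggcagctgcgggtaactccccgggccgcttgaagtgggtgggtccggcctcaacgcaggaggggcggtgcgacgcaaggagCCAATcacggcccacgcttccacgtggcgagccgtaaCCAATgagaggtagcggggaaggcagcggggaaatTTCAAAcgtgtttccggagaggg
Cenpf: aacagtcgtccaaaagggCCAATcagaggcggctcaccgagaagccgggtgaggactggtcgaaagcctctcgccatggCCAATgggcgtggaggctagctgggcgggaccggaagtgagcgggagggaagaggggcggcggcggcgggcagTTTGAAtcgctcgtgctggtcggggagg
Racgap1: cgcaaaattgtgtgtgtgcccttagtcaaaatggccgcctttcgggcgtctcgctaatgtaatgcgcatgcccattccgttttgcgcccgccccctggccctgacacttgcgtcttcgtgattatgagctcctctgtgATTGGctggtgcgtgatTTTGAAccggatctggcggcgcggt
Hmmr: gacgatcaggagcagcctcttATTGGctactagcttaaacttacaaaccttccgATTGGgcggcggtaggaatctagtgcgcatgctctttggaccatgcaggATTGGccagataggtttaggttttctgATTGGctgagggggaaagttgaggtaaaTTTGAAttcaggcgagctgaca
In all 4 windows TTTGAA began within 10 bases after the start site and downstream of every CCAAT match. Cenpf fell by 3.00, Racgap1 by 2.94 and Hmmr by 2.91. A match of letters describes the window only, and says nothing of which factor binds there.

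DNA replication genes moved in the same direction by less. Of 39 measured, 21 were called lower (53.8%, against 8.02% of all genes) and none higher. The median was -1.03, and 38 had a negative difference. Mcm7, a subunit of the replicative helicase, was 7.97 and 7.93 in pre-CD4 and 5.87 and 5.89 in CD172a DC (difference -2.07 ± 0.29, limma adjusted p = 0.00039), with no overlap. Gins2, of the same helicase complex, fell by 1.81, the initiation factor gene Mcm10 by 1.78 and Uhrf1, a maintenance factor of DNA methylation, by 1.65. The count of lower members was 11 without CD172a DC array 1, 8 without pre-CD4 array 1, and 13 after quantile normalization. Their promoters held GGCGGGAA in 5 of 34 (14.7%, against 1.62% of all promoters), CCAAT in 19 (55.9% against 27.7%) and TTTGAA in 5 (14.7% against 10.5%). The share with TTTGAA was near that of all promoters. Ribosome biogenesis and MYC genes, another group tied to growth, had a median of -0.05, with 4 of 28 called lower (Nop16, Dkc1, Nip7 and Nop56) and 1 higher (Odc1, the rate-limiting enzyme of polyamine synthesis). That is 14.3% and 3.57%, against 8.02% and 4.70% of all genes. The lower count was 0 without CD172a DC array 1 or pre-CD4 array 1 and 1 without either other array, and the call of Odc1 ended without any one of the 4. Quantile normalization turned the balance of the calls, to 4 higher and 1 lower. Myc itself differed by 0.28 (95% interval -0.38 to 0.94, adjusted p = 0.594), and by -0.12 without CD172a DC array 1.

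**Figure D2:**
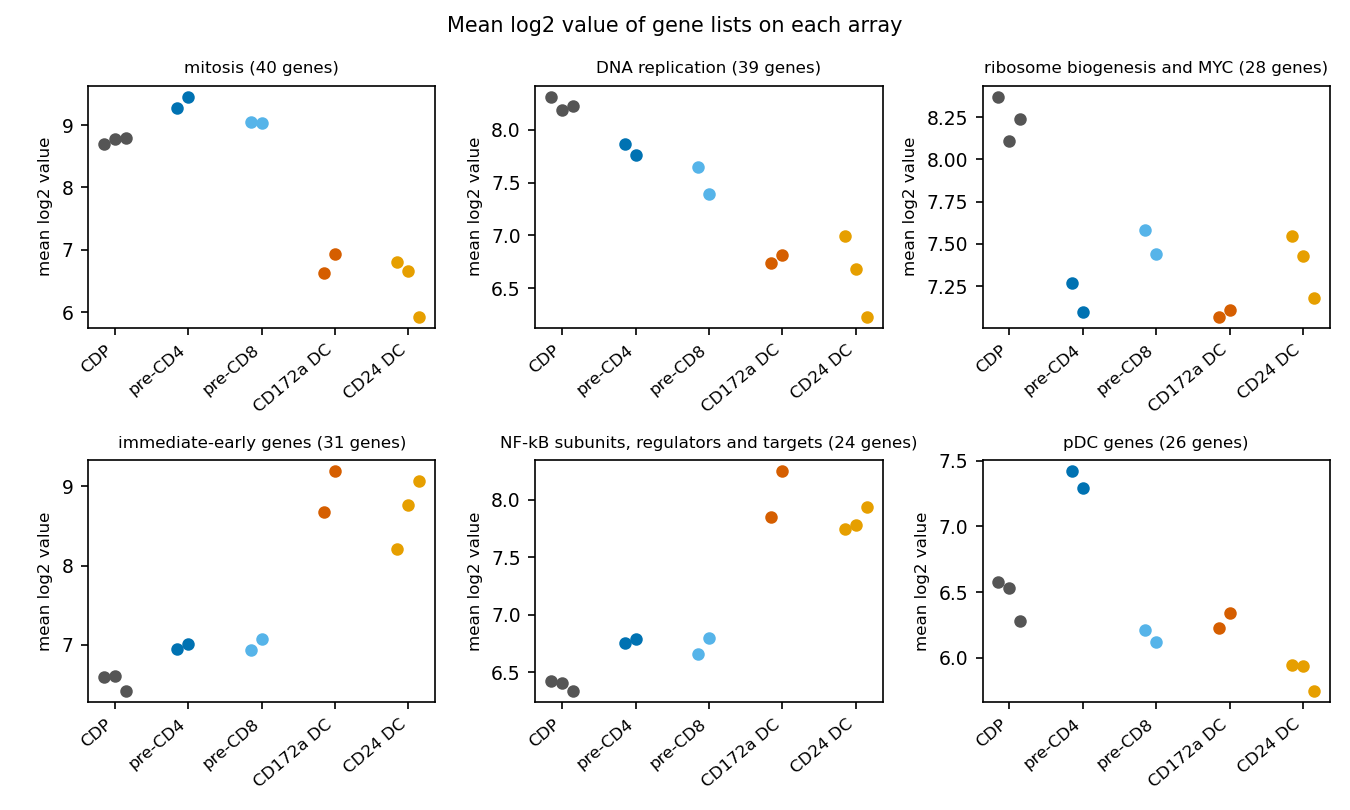
Mean log2 value over the genes of 6 lists on each of the 12 arrays, by group; each point is 1 array and the vertical scale differs between panels and does not start at 0. The mitosis mean was 9.28 and 9.45 in pre-CD4 and 6.63 and 6.93 in CD172a DC, and the immediate-early mean 6.95 and 7.01 against 8.68 and 9.19.

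Antigen presentation on MHC class II rose in part of its genes. Leaving aside the 3 gate genes (H2-Eb1, H2-Ab1 and H2-Aa), 6 of 15 measured members were called higher and 1 lower, with a median of 0.37. With the gate genes, 50% of the list was higher and 5.56% lower, against 4.70% and 8.02% of all genes. H2-Eb2, a further class II β chain gene, stood at 9.0 and 9.58 in CD172a DC and 4.45 and 4.31 in pre-CD4 (difference 4.91 ± 0.47, limma adjusted p = 1.69e-05). H2-DMb2, a chain of the peptide exchanger H2-DM, was 11.40 and 10.99 against 8.41 and 7.70, and Cd83, which keeps class II and CD86 at the surface, was 8.86 and 9.75 against 5.62 and 5.64. Groups were clearly apart for all 3. The others were Ciita, the class II transactivator (2.42), and the exchange regulator genes H2-Ob (2.66) and H2-Oa (1.56). Ifi30, a lysosomal thiol reductase, was lower at -1.5, a call that ended without CD172a DC array 1 or either pre-CD4 array. Among class I loading genes only the chaperone genes Canx (-1.07) and Calr (-0.74) were called of 16, both lower, and neither kept its call without CD172a DC array 1 or pre-CD4 array 1. CCAAT lay in 10 of 14 class II promoter windows (71.4%, against 27.7% of all promoters) and TTTGAA in 0 (10.5% of all promoters). The windows of the genes with the largest rises follow, with CCAAT matches on either strand in capitals. H2-Eb2 lies at chr17:34325525-34325704 (+) and H2-Eb1 at chr17:34305717-34305896 (+).
H2-Eb2: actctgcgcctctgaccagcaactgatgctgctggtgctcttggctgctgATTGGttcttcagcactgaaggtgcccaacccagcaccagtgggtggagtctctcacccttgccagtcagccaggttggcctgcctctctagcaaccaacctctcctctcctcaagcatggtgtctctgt
H2-Eb1: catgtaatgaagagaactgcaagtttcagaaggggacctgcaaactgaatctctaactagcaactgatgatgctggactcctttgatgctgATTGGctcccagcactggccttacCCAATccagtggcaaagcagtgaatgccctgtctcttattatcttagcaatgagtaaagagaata
H2-Eb1, a gate gene, was 10.99 and 11.47 in CD172a DC against 6.05 and 7.07 in pre-CD4.

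Costimulatory and checkpoint ligands rose in 8 of 21 measured members (38.1%, against 4.70% of all genes) and had a median of 0.65. They fell in 2 (9.52%), near the 8.02% of all genes called lower. Cd80 stood at 10.04 and 10.46 in CD172a DC against 5.36 and 5.14, a 32.1-fold rise (limma adjusted p = 5.2e-06). Cd86 stood at 10.89 and 11.03 against 6.57 and 5.84, a difference of 4.76 ± 0.34. Havcr2, which encodes the inhibitory receptor TIM-3, rose by 4.84 and Cd274, which encodes the checkpoint ligand PD-L1, by 3.33. These 4 genes were far apart between the groups on every array. Cd48, a ligand of the SLAM family, fell by 1.60 and Lgals9, the gene of galectin-9, by 0.86. The call of Lgals9 was lost without any one of the 4 arrays, and the count of higher members was 5 without CD172a DC array 2 or pre-CD4 array 1.

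Immediate-early genes are transcribed within minutes of a stimulus without new protein synthesis. Of 31 measured, 23 rose (74.2%, against 4.70% of all genes) and none fell (none at an unadjusted p under 0.05). The median was 1.28 and the maximum 6.87. Besides Nr4a3, its relatives Nr4a2 (10.66 and 11.21 against 6.00 and 5.56) and Nr4a1 (11.76 and 12.39 against 6.91 and 7.34) rose by 5.16 and 4.95. The zinc-finger gene Egr2 rose from 4.75 and 5.25 to 8.60 and 9.66 (difference 4.13 ± 0.51, limma adjusted p = 0.00014). The AP-1 genes Fos and Jun, named here outside the ranking by size, had smaller differences of 1.24 and 1.07. Other AP-1 genes are not given. The count of members called higher was 13 without CD172a DC array 2 and, for pre-CD4, 14 without array 1 and 15 without array 2. Splenocytes were digested with enzymes and marrow was not, and the part of digestion in these differences was not tested. The list's mean was 8.21 to 9.07 on the CD24 DC arrays, the other mature population, and 6.42 to 7.07 over the arrays of CDP and pre-CD8. A cAMP response element (TGACGTCA) was found in 2 of 28 of their promoter windows (7.14%, against 1.65% of all).

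Genes of NF-κB, the transcription factor family of inflammatory signalling, showed a like pattern. Of 24, 16 were called higher (66.7%, against 4.70% of all genes) and none lower, with a median of 1.30. Traf1, a signalling adaptor of TNF receptors, was 9.38 and 9.85 against 5.08 and 5.97, and the feedback inhibitor gene Tnfaip3 was 8.67 and 9.72 against 6.31 and 6.17 (difference 2.96 ± 0.31, limma adjusted p = 4.3e-05). Rel, which encodes the subunit c-Rel, stood at 11.13 and 11.39 against 8.94 and 9.51. Neither group reached the other for these genes. Relb, the subunit of the alternative pathway on which splenic cDC2 depend, rose by 1.45, and its adjusted p of 0.00765 became 0.0723 without CD172a DC array 2 and 0.107 without pre-CD4 array 1. Without CD172a DC array 2 the list's count was 9. Membership overlaps between lists, so that Cd83 counts among both the class II and the NF-κB genes.

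**Figure D3:**
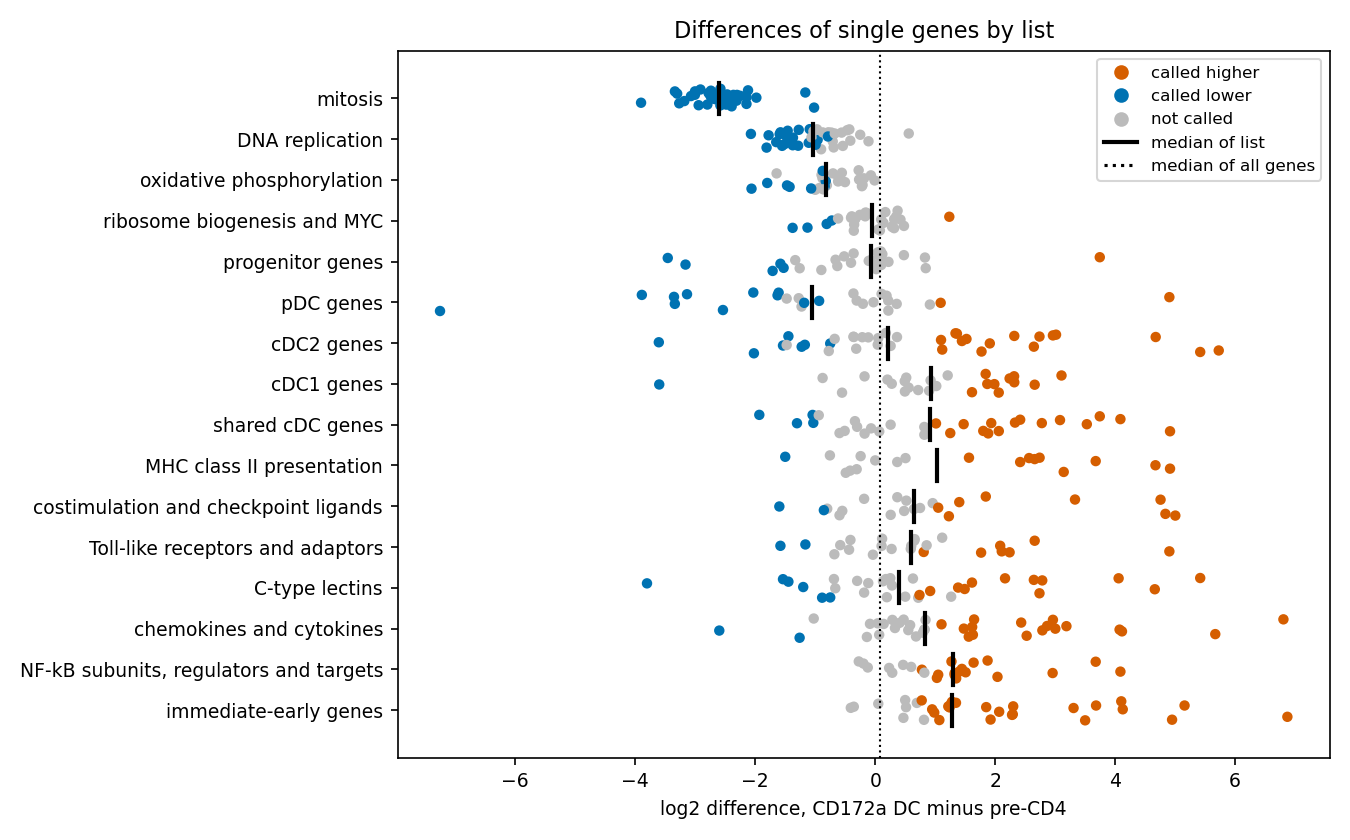
Log2 difference of each measured gene, CD172a DC minus pre-CD4, in 16 lists; each point is a gene, orange called higher, blue called lower, grey not called, with a bar at the list's median and a dotted line at the median of all genes (0.09). Mitosis genes lie wholly to the left, with a median of -2.60, and immediate-early and NF-κB genes mostly to the right, with medians of 1.28 and 1.30.

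Chemokines and cytokines were called higher in 17 of 36 cases (47.2%, against 4.70% of all genes), with a median of 0.83. They were lower in 2 (5.56%, against 8.02%). Behind Il1b came Ccl5, at 10.36 and 11.80 against 5.42 and 5.4, and Cxcl9, an interferon-γ-induced chemokine for T cells, at 8.55 and 9.06 against 4.38 and 5.0 (difference 4.11 ± 0.33, limma adjusted p = 5.06e-06). Ccl3, an inflammatory chemokine, stood at 10.75 and 11.39 against 7.06 and 6.93. All 3 were well separated. The chemokine genes Ccl9 and Ccl6 were lower, at -2.60 and -1.26, and the call of Ccl6 ended without CD172a DC array 2 or either pre-CD4 array. The count of higher members was 11 without pre-CD4 array 1.

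Chemokine and egress receptors, which guide cells between marrow, blood and tissue, changed both ways. Of 26, 8 were called higher and 4 lower (30.8% and 15.4%, against 4.70% and 8.02% of all genes). Ccr2, the receptor with which monocytes and DC precursors leave the marrow, was 10.32 and 10.75 in pre-CD4 and 6.98 and 6.88 in CD172a DC (difference -3.61 ± 0.40, limma adjusted p = 5.79e-05). Ccr7, the receptor for migration to lymph nodes and T cell zones, was 8.19 and 9.21 in CD172a DC and 5.67 and 5.57 in pre-CD4, a rise of 3.08 ± 0.53. Cx3cr1, the fractalkine receptor, was 9.39 and 9.27 in the progenitor against 8.30 and 8.01. The 3 receptors did not overlap between groups, nor did 60.5% of all genes. Sphingosine-1-phosphate receptor genes S1pr4 and S1pr3 fell by 1.87 and 1.70, the latter losing its call without either CD172a DC array or without pre-CD4 array 1. Ccr3, a receptor for eotaxins, rose by 2.53 and Ptger3, a prostaglandin E2 receptor, by 2.07.

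Innate sensors followed. Toll-like receptors and their adaptors were higher in 7 of 23 cases and lower in 2, with a median of 0.60, and the higher count was 4 without pre-CD4 array 1. With all arrays, 30.4% of the list was called higher and 8.7% lower, against 4.70% and 8.02% of all genes. Tlr7, the endosomal sensor of single-stranded RNA, stood at 8.87 and 9.47 in CD172a DC and 3.65 and 4.88 in pre-CD4, 29.9-fold (limma adjusted p = 2.22e-06). Tlr11, a sensor of profilin, rose by 2.66, Tlr3, a sensor of double-stranded RNA, by 2.24 and Tlr13, a sensor of bacterial ribosomal RNA, by 2.11. The call of Tlr13 ended without any one of the arrays. Tlr12, the partner of Tlr11, went the other way at -1.58, as did Ly86, the gene of the RP105 partner MD-1, at -1.16, whose call ended without CD172a DC array 1 or either pre-CD4 array.

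C-type lectins, the receptors for sugars on microbes and cells, were higher in 12 of 32 cases and lower in 6. Those shares, 37.5% and 18.8%, stand beside 4.70% and 8.02% of all genes. Clec4a4, which encodes the cDC2 lectin DCIR2, was 7.86 and 8.47 in CD172a DC against 2.62 and 2.87 in pre-CD4 (difference 5.42 ± 0.27, limma adjusted p = 1.66e-07). Its neighbour in the family, Clec4a1, was 9.79 and 9.71 against 5.25 and 6.14. Clec7a, which encodes the β-glucan receptor Dectin-1, was 8.97 and 9.67 against 6.21 and 6.96, and is named here after its value was seen. All of these arrays stood apart by group, as they did for 60.5% of all genes. Cd209d, of the DC-SIGN family, was the reverse, at 4.19 and 4.80 against 8.18 and 8.42. Clec12a (-1.54), Clec10a (-1.45) and Clec1a (-1.20) were also lower, the last 2 losing their calls without CD172a DC array 1 or pre-CD4 array 1, and Clec1a also without CD172a DC array 2. The count of higher members was 6 without pre-CD4 array 1, and the count of lower members 3, 3 and 2 without CD172a DC array 1, CD172a DC array 2 or pre-CD4 array 1. Sirpb1c and Sirpb1a, activating relatives of Sirpa, rose by 5.92 and 4.67.

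Transcription factor genes of DC development were called higher in 16 of 47 cases and lower in 7, with a median of 0.28. Those shares, 34% and 14.9%, stand beside 4.70% and 8.02% of all genes. The lower count was 4 without either CD172a DC array, without pre-CD4 array 1 or after quantile normalization. Irf8, the factor of early DC progenitors and cDC1, stood at 12.05 and 11.92 in pre-CD4 and 7.97 and 8.80 in CD172a DC, 12.1-fold lower in the mature cells (difference -3.60 ± 0.26, limma adjusted p = 2.22e-06). Irf4, the factor of cDC2, stood at 8.09 and 8.84 against 6.53 and 7.67, a rise of 1.36 ± 0.39 (adjusted p = 0.0343), with array 2 of pre-CD4 just below array 1 of CD172a DC. That call did not survive the loss of CD172a DC array 2 (adjusted p = 0.22) or pre-CD4 array 1 (0.378). Id2, the inhibitor that keeps E proteins such as TCF4 from DNA, was 8.34 and 8.74 against 5.4 and 5.46, and Tcf4 itself was 7.43 and 7.57 against 9.58 and 9.49. Both were fully separated, with differences of 3.10 and -2.03. Batf3, the cofactor of IRF8 in cDC1, rose by 2.31 ± 0.45. Spib, an ETS factor of pDC and progenitors, fell by 1.61 ± 0.24.

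Some defining factors of the lineage did not pass the test. Zbtb46, of which every sample carried the GFP allele, stood at 6.44 and 6.53 in CD172a DC and 6.62 and 6.22 in pre-CD4, a difference of 0.07 (95% interval -0.47 to 0.60, limma adjusted p = 0.89). Klf4, needed by a subset of cDC2, was 8.39 and 9.76 against 9.29 and 9.58 (difference -0.36, interval -1.29 to 0.57, adjusted p = 0.635). Arrays of both groups overlapped for each. Without CD172a DC array 1 the Klf4 difference was 0.33, and without pre-CD4 array 2 that of Zbtb46 was -0.14. Zeb2 was not analysed here.

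Notch signalling genes, which maintain the splenic ESAM-high cDC2, were called higher in 5 of 31 cases and lower in 2. The median was 0.13, and those shares, 16.1% and 6.45%, stand beside 4.70% and 8.02% of all genes. The 5 were the ligand gene Jag1 (2.20), the Notch target genes Dtx1 (1.91) and Hes1 (1.78), the modifying enzyme gene Lfng (1.18) and Esam, the adhesion molecule of that subset (1.10). Esam stood at 5.46 and 5.53 against 4.50 and 4.30, and Dtx1 at 7.05 and 7.16 against 5.27 and 5.11, without overlap. Esam was also 5.13 to 5.64 in CD24 DC, and its lineage difference of 0.57 was not called (limma adjusted p = 0.598). Its values in CD172a DC lay just above the medians of those arrays, 5.23 and 5.12. Hes1 lost its call without CD172a DC array 2 or pre-CD4 array 1, and Lfng without either CD172a DC array or pre-CD4 array 1. The receptor genes Notch1 and Notch2 were lower by 0.87 and 0.75. Notch2 was called at a limma adjusted p of 0.0436, and left-out arrays gave 0.0605 to 0.287, with 0.163 after quantile normalization. Notch1 lost its call without CD172a DC array 2 or pre-CD4 array 1 and after quantile normalization, which left 0 genes of the list lower.

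**Figure D4:**
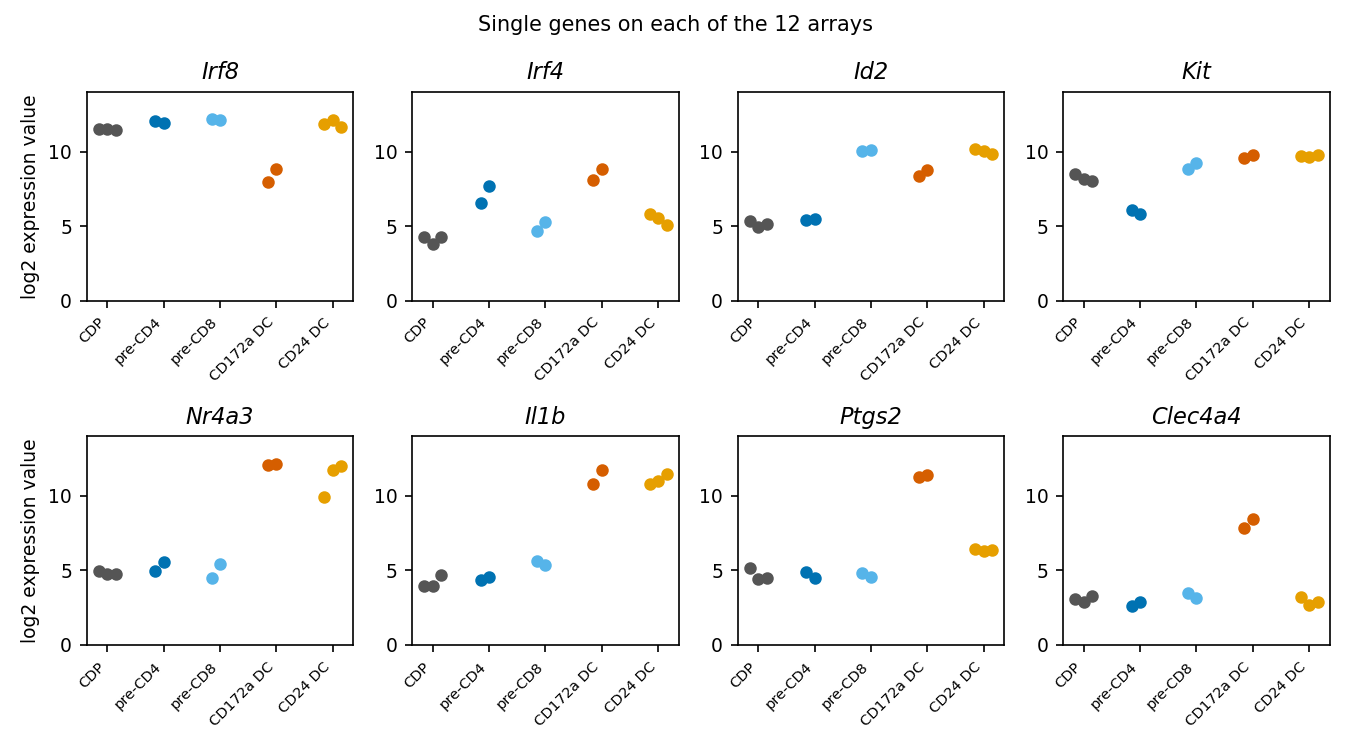
Log2 expression values of 8 genes on each of the 12 arrays; each point is 1 array, grouped on the horizontal axis. Irf8 is low in CD172a DC alone (7.97 and 8.80), Ptgs2 and Clec4a4 are highest there, and Nr4a3 and Il1b are high in both mature populations.

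The label of the population was set against marker lists, which hold some of the gate genes. Without those genes the higher and lower counts were 15 and 7 of 33 for the cDC2 list, with a median of 0.18 against 0.09 over all genes. For the list shared by both classical lineages, where Kit is left out, they were 14 and 4 of 27, with a median of 1.01. With the gate genes, the cDC2 list was called higher in 16 of 36 cases and lower in 7, with a median of 0.22. That is 44.4% and 19.4%, against 4.70% and 8.02% of all genes. The mean of the cDC2 list was 7.51 and 7.85 in CD172a DC, 6.88 and 7.04 in pre-CD4 and 6.51 to 6.62 in CD24 DC. Cd4, the coreceptor carried by many splenic cDC2, stood at 6.26 and 7.78 against 3.86 and 4.16 (difference 3.01 ± 0.39, limma adjusted p = 0.000214). Il1r2 and Clec4a4 led the rises, and Ccr2, Nrp1 (-2.02) and Clec12a the falls. The lower count was 4 without CD172a DC array 1 or pre-CD4 array 1. Genes shared by both classical lineages were higher in 15 of 30 cases (50%, against 4.70%) and lower in 4 (13.3%, against 8.02%). Among the higher was Anpep, the aminopeptidase CD13 (3.53). Among the lower were Cd200r1 (-1.93) and the kynurenine pathway genes Haao (-1.30) and Kmo (-1.04). The calls of Haao and Kmo both ended without CD172a DC array 1 or either pre-CD4 array. The lower count was 1 without pre-CD4 array 1 or after quantile normalization, and 2 without CD172a DC array 1 or pre-CD4 array 2. Of the cDC1 list 10 of 25 were higher (40%, against 4.70%), with a median of 0.92, led by Id2, Tlr11, Cd36 (2.32) and Batf3. Only Irf8 was lower (4%, against 8.02%). The mean of the cDC1 list was 6.75 and 6.88 in CD172a DC, against 5.86 and 5.85 in pre-CD4 and 9.61 to 9.91 in CD24 DC.

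Of 26 pDC genes measured, 11 (42.3%, against 8.02% of all genes) were called lower in CD172a DC and 2 higher (Tlr7, and Ccr9 only with all 4 arrays), with a median of -1.06. The mean of the list was 7.42 and 7.29 on the pre-CD4 arrays, 6.23 and 6.34 in CD172a DC, 6.12 to 6.21 in pre-CD8 and 6.28 to 6.58 in CDP. Siglech, the pDC surface lectin, which was gated out of pre-CD8 but not of pre-CD4, stood at 8.53 and 8.04 in pre-CD4 and 6.78 and 6.54 in CD172a DC. Bst2, the pDC antigen PDCA-1, was 11.51 and 10.35 against 7.16 and 8.02, and Cd300c, an activating immunoglobulin-like receptor, 10.80 and 9.84 against 6.27 and 6.58. These genes were separated on all 4 arrays, as were 60.5% of all genes. Siglech lost its call without CD172a DC array 2 (limma adjusted p = 0.0549) or pre-CD4 array 1 (0.0909). The part of pDC in the pre-CD4 sort in these differences was not tested. Of 29 progenitor genes 5 were lower (17.2%, against 8.02% of all genes) and 1, the gate gene Kit, was higher (3.45%, against 4.70%). The lower ones were F13a1, the factor XIII subunit (-3.46), the factor gene Myb (-3.16) and Cd34, the stem cell sialomucin (-1.71). The protease gene Ctsg (-1.58) and the factor gene Lyl1 (-1.53) completed them. Cd34 lost its call without CD172a DC array 1 or pre-CD4 array 1 and Ctsg without CD172a DC array 2 or pre-CD4 array 1. Without pre-CD4 array 1 the lower count was 2.

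Monocyte and macrophage genes split, with 11 of 34 called higher and 6 lower (32.4% and 17.6%, against 4.70% and 8.02% of all genes). Several of the higher ones are known from macrophages of the spleen. Adgre1, which encodes the macrophage surface receptor EMR1, stood at 9.20 and 9.42 in CD172a DC and 5.50 and 5.6 in pre-CD4 (difference 3.76 ± 0.30, limma adjusted p = 5.03e-06). Spic, the factor of red pulp macrophages, stood at 7.55 and 7.73 against 4.30 and 4.54, and Vcam1, their adhesion molecule, at 7.20 and 7.11 against 4.67 and 4.85. The groups were apart by more than 2 units in each. Ms4a7, Hmox1, which encodes haem oxygenase, and Slc40a1, the iron exporter, rose by 2.12, 2.07 and 2.02. In CD24 DC, Spic was 6.85 to 7.25 and Vcam1 6.25 to 6.60, whereas Adgre1 was 5.52 to 5.63. The lower genes were of monocytes, Ly6c2, Fn1, Ccr2, F13a1, Cx3cr1 and, from macrophages, the haemoglobin scavenger gene Cd163 (-1.62). The mean of the whole list was 6.57 and 6.21 in CD172a DC and 6.34 and 6.58 in pre-CD4. The CD172a DC gate held no marker against macrophages, and their part in the results was not tested. The higher count was 6 without pre-CD4 array 1. Complement and phagocytic receptor genes, some of which, such as C1qb (1.39) and Cd163, are also in the monocyte and macrophage list, were higher in 6 of 25 cases and lower in 2 (Cd163 and Scarb1, the latter not without CD172a DC array 1 or pre-CD4 array 1). As shares these are 24% and 8%, against 4.70% and 8.02% of all genes. The higher count was 1 without pre-CD4 array 1 and 3 without either CD172a DC array.

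Of 100 measured markers of other cells in 9 lists, 10 were called higher and 3 lower. The shares, 10% and 3%, stand beside 4.70% and 8.02% of all genes. None of 14 neutrophil markers and none of 10 NK cell markers passed limma (1 lower and 4 higher at an unadjusted p under 0.05; 1 lower and 1 higher called after quantile normalization), but 2 neutrophil transcripts differed widely inside the groups. S100a8 was 10.24 on CD172a DC array 1 and 4.83 on array 2, and 7.88 and 8.89 on the pre-CD4 arrays. S100a9 showed the same order, 9.33 and 5.22 against 7.87 and 8.94. Of 15 B cell markers, Ms4a1, the gene of CD20, rose from 4.41 and 4.24 to 7.03 and 6.31, Cd22 was higher by 0.93 and Ighm lower by 1.21. The call of Cd22 ended without any one of the arrays. Cd5 (1.36) was the one of 9 T cell markers called, losing its call without CD172a DC array 2, Car2 (1.47) the one of 8 erythroid markers, losing it without CD172a DC array 2 or pre-CD4 array 1, and Xbp1 (-0.81) the one of 7 plasma cell markers, losing it without CD172a DC array 1 or either pre-CD4 array. Gp9 (1.16) and Clec1b (1.49) of 9 platelet markers and Kdr (0.98) and Stab2 (1.05) of 16 stromal and endothelial markers were called higher, and both lists kept at most 1 call without any one array and 0 without pre-CD4 array 1. Of 12 basophil, mast cell and eosinophil markers, Ccr3 and Hdc (1.58) were higher and Mcpt8 (-2.06) lower. Mcpt8 differed between the pre-CD4 arrays (5.21 and 7.58) and kept its call only without array 1 of them. The B cell list's mean was 5.68 and 5.6 in CD172a DC and 5.53 and 5.35 in pre-CD4, and the part of such cells was not tested.

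Of 27 oxidative phosphorylation genes 8 were lower (29.6%, against 8.02% of all genes) and none higher, with a median of -0.82 and no positive difference. Ndufa9, a subunit of complex I, was 8.89 and 8.27 in pre-CD4 and 6.07 and 6.97 in CD172a DC (difference -2.06 ± 0.34, limma adjusted p = 0.00118). The count was 2 without CD172a DC array 1 and, for pre-CD4, 2 without array 1 and 3 without array 2. Cox4i1, a subunit of cytochrome oxidase, differed by 2 units between the CD172a DC arrays, at 7.96 and 10.05. Of 19 glycolysis genes, Pgk1 (-1.90), the lactate transporter gene Slc16a1 (-1.09) and Pkm (-0.70) were lower, and Pfkfb3, which makes the activator of phosphofructokinase (1.17), and the glucose transporter gene Slc2a3 (0.89) were higher. Of these 5, Pgk1 and Pfkfb3 kept their calls without each of the arrays. By share, 15.8% of the glycolysis list was lower and 10.5% higher, against 8.02% and 4.70% of all genes. In cholesterol synthesis Fdps (-2.86) and Sqle (-1.01) were the 2 of 19 called, Sqle only with all arrays present. That share, 10.5%, is near the 8.02% of all genes called lower. So are the lower shares of the class I loading (12.5%), heat-shock (11.1%), adhesion (12.5%) and interferon-stimulated genes (12.5%). The same holds for the Toll-like receptor (8.7%), costimulation (9.52%), Notch (6.45%) and complement lists (8%). None of these lower shares is a result about its list.

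Interferon-stimulated genes were higher in 9 of 24 cases (37.5%, against 4.70% of all genes) and lower in 3 (12.5%), with a median of 0.80. Oas2, an antiviral oligoadenylate synthetase, stood at 7.50 and 7.71 against 4.96 and 5.57 (difference 2.34 ± 0.39, limma adjusted p = 0.00146), and Rtp4, Ddx58, the gene of the RNA sensor RIG-I, and Ifih1, the gene of MDA5, rose by 2.06, 1.91 and 1.70. Bst2, Mx2 (-1.66) and Mx1 (-1.22) were lower. Rtp4 lost its call without CD172a DC array 2 or pre-CD4 array 1 and Mx1 without CD172a DC array 1 or either pre-CD4 array, and the higher count was 5 without pre-CD4 array 1. Lysosome genes were lower in 6 of 29 cases (20.7%, against 8.02% of all genes), among them the cholesterol carrier gene Npc2 (-1.83) and the prosaposin gene Psap (-1.02). They were higher for Cd63, a tetraspanin (2.77), and Ctsc, a cathepsin (1.53), a share of 6.9% against 4.70%. Psap and Ctsc lost their calls without pre-CD4 array 1, when the lower count was 3, and Ctsc also without CD172a DC array 2. Adhesion genes were higher in 6 of 32 cases and lower in 4, of which 2 were left without CD172a DC array 1 or pre-CD4 array 2. With all arrays, 18.8% of the adhesion list was higher and 12.5% lower, against 4.70% and 8.02% of all genes. Cd81, a tetraspanin, was 8.68 and 9.30 against 5.44 and 5.21, and Selplg, the P-selectin ligand, 8.75 and 9.18 against 11.19 and 10.87, in both cases without overlap. Of 18 heat-shock and chaperone genes, Hspa1b (1.83) and Dnajb4 (1.00) were higher (11.1%, against 4.70% of all genes). Hsp90b1 (-1.09) and Cct5 (-0.84) were lower (11.1%, against 8.02%). None of these 4 kept its call without pre-CD4 array 1. After quantile normalization the lower count was 3 for the lysosome genes and 1 each for the costimulation, chemokine and cytokine, class I loading and heat-shock lists, with the calls of Lgals9, Ccl6, Calr and Cct5 lost. Those of Haao, Kmo, Dkc1, Nip7, Nop56, Pkm, Ccr9, Dnajb4, Kdr and Xbp1 were lost too. With only the groups in the contrast, Calr, Ifi30, Ly86, Mcpt8, Nip7, Nop56, Pkm, Xbp1, Irf4 and Notch2 lost theirs.

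Whether a difference belonged to the CD172a lineage or also marked the other one was tested by subtracting the difference of CD24 DC from pre-CD8, which shares no array with it. This lineage difference was called for 229 of 22184 genes (1.03%), 118 positive and 111 negative. Of the positive ones 102 were also called higher in CD172a DC than in pre-CD4, and of the negative ones 77 were called lower. The lineage difference contains the CD172a DC minus pre-CD4 difference itself, so this overlap is partly built in and is no independent support. The count fell to 130, 99, 125 and 145 without CD172a DC array 1, pre-CD4 array 1, pre-CD4 array 2 or pre-CD8 array 1. In limma it was called for none of the mitosis, immediate-early or NF-κB genes (0, 1 and 3 at an unadjusted p under 0.05), with a median standard error of 0.36 over all genes. With only 1.03% of all genes called, the lack of calls in lists this short is no result about them. Other lists, such as costimulation and Notch, had none either. Nr4a3 differed by 6.87 in the CD172a lineage and 6.30 in the other, Il1b by 6.80 and 5.58, and Birc5 by -3.90 and -2.97.

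**Figure D5:**
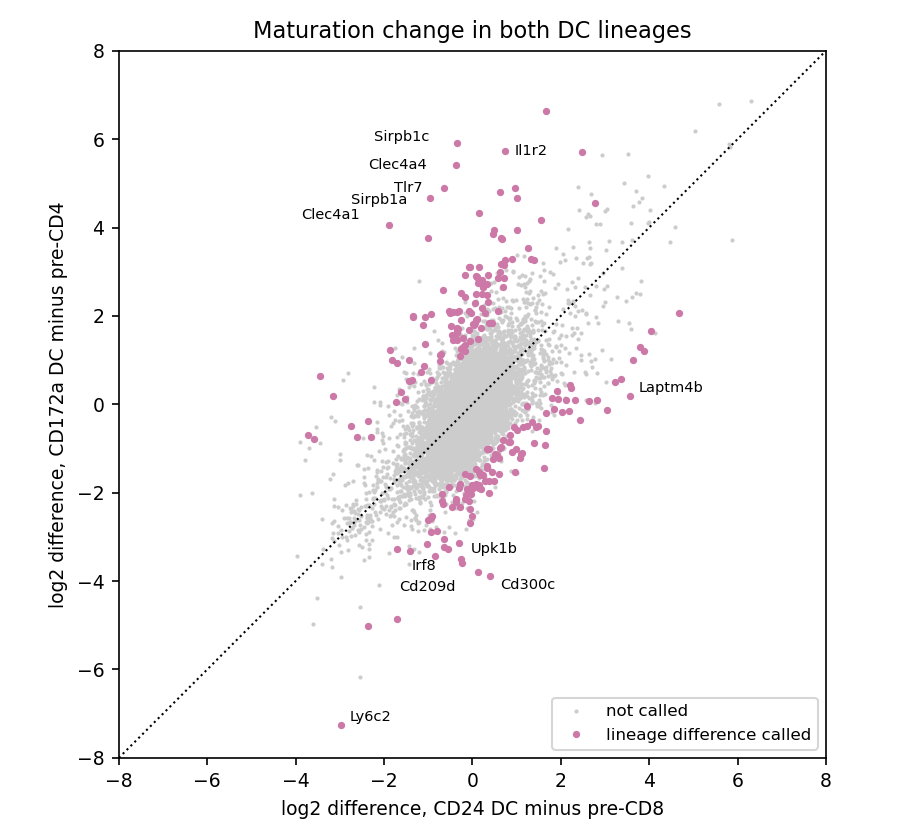
Log2 difference of each gene in the CD172a lineage (vertical) against that in the CD24 lineage (horizontal); grey points are genes whose lineage difference was not called, pink points the 229 called, and the dotted line marks equal differences. The 12 labelled genes have the largest called values in each direction, from 6.26 for Sirpb1c to -4.29 for Cd300c.

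Sirpb1c was 9.57 and 9.01 in CD172a DC, 2.74 and 4.0 in pre-CD4, 2.20 to 2.47 in CD24 DC and 2.63 on average in pre-CD8, a lineage difference of 6.26 ± 0.49 (limma adjusted p = 4.64e-05). Tlr7 was 3.69 to 3.87 in CD24 DC and 4.18 and 4.73 in pre-CD8, with a lineage difference of 5.55. Clec4a1 differed by 4.06 in the CD172a lineage and by -1.89 in the other. Il1r2 had a lineage difference of 5.0 whose adjusted p of 0.0174 became 0.063 to 0.0803 without CD172a DC array 2, either pre-CD4 array or pre-CD8 array 1. Among factors of lineage identity, Id2 differed by 3.10 and -0.08 in the 2 lineages and was already at 10.06 and 10.14 in pre-CD8. Irf8 differed by -3.60 and -0.24, standing at 12.16 and 12.12 in pre-CD8 and 11.68 to 12.15 in CD24 DC. The lineage difference passed for both, at 3.19 and -3.36. For Irf4 it was 0.84 ± 0.53 and did not pass (adjusted p = 0.689). Laptm4b, a lysosomal membrane protein gene, differed by 0.18 in the CD172a lineage, where it was not called, and by 3.58 in the CD24 lineage. Kit, which the gates of the progenitors treated differently, had a lineage difference of 3.08.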

How the data were processed

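Sorted-cell RNA was amplified (NuGEN Ovation Pico WTA) and hybridised to mouse arrays, per the labels' protocols. The authors deposited log2 values for each probe set on each array, replicates not pooled, from 0.84 to 13.09. Their background correction and normalization: not given in the sources used here. No detection call was used, so whether a low value is above background is unknown. Array means were 5.28 to 5.34 and array medians 4.89 to 5.24. The interquartile range was narrower in CD172a DC, at 2.17 and 2.35, than in pre-CD4, at 2.74 and 2.60. The number of arrays limits precision (median standard error 0.27).

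Of 35145 probe sets, 23525 had 1 gene symbol in the platform annotation, 1810 several and 9810 none listed; only the first were used, with the probe set of highest mean for each of 1082 genes with more than 1, leaving 22184 genes. limma 3.58.1 in R 4.3.3 (lmFit, eBayes) was fitted to all 12 arrays with 5 group means (residual df 7), two-sided, adjusted over all genes. The procedure was run on simulated data with independent noise, which cannot test effects shared across an array or tied to organ. Named were the 12 genes with the largest called differences in each direction, up to 4 called members per direction of each of 38 lists, a fixed panel of genes, and the 6 genes with the largest called lineage difference in each direction. Members and lists were chosen with earlier results of these data known. Alternatives were quantile normalization, a filter on dim genes (40th percentile), every probe set, fewer groups, a replicate block, a minimum difference of 0.5, array weights, a variance trend and leaving out each array. No batch was given in the labels or table.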

Additional observations from a re-analysis of the deposited data

Results flagged for a closer look

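The following 12 genes differed between the lineages in their change from progenitor to mature DC, by the limma test of the difference itself: (CD172a DC minus pre-CD4) minus (CD24 DC minus pre-CD8). The positive values were those of Sirpb1c (6.26), Clec4a1 (5.94), Clec4a4 (5.79), Sirpb1a (5.63), Tlr7 (5.55) and Il1r2 (5.0). The negative ones were those of Cd300c (-4.29), Ly6c2 (-4.28), Cd209d (-3.93), Laptm4b (-3.39), Irf8 (-3.36) and Upk1b (-3.23), a uroplakin gene. Adjusted p-values ran from 1.01e-05 for Clec4a4 to 0.0174 for Il1r2, whose call ended without CD172a DC array 2, either pre-CD4 array or pre-CD8 array 1. Ly6c2 fell in both lineages, by 7.25 and 2.97. Upk1b stood at 8.89 and 8.27 in pre-CD4 and at 4.67 to 5.41 over the arrays of CD24 DC and pre-CD8. Groups of 2 or 3 arrays were not tested for single outlying samples.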

How the results depend on the processing

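Counts of 1042 higher and 1779 lower genes became 396 and 569 when a log2 difference above 0.5 was required. Leaving out single arrays gave 503 to 806 higher and 730 to 1411 lower. The lineage count of 229 became 134 with only the groups in the contrast, 84 with the minimum difference, 481 with array weights and 99 to 278 without single arrays. Other settings stayed within 1.5 times. Quantile normalization called 1175 higher and 1371 lower, of which 884 and 1243 were among the original calls. With the replicate number as a block, 1306 genes were higher and 2222 lower, sharing 1040 and 1777 with the unblocked fit, and 292 were called for the lineage difference. Deviations of CD172a DC array 1 and pre-CD4 array 1 from their group means correlated at r = -0.053 across genes. This 1 pair of arrays cannot show whether the numbers pair these samples.

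Of 2135 combinations of a named gene and a setting, 1871 kept direction and side of the threshold, 260 fell short of it and 4 changed sign, all in genes not called and all without a single array: over the arrays left out Itgax ranged from -0.08 to 0.59, Klf4 from -1.04 to 0.33, Myc from -0.12 to 0.69 and Zbtb46 from -0.14 to 0.27. Of 172 named genes called, 112 kept the call without each single array and 15 lost it under all 4. With 2 arrays a group, leaving 1 out lets the lone array borrow its spread from the other groups. Without single arrays, the mitosis list kept 38 or 39 of its 40 calls. The causes were not tested.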
